A study of Mus musculus with 6 samples.

Results

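The genes described here are 9 enzymes of glycolysis (Hk1, Hk2, Pfkl, Pfkp, Aldoa, Pgk1, Eno1, Pkm and Ldha) and the lactate exporter Slc16a3, measured by RNA-seq in the rostral telencephalon of mouse embryos lacking Dicer. They were picked by gene name, with no measured value in the rule. The 10 names matched 11 of the 55471 gene rows in the files, because 2 Ensembl records carry the name Aldoa. All 10 were among the 17128 genes that received an adjusted p. Tissue was the rostral tip of the embryonic telencephalon, dissected at embryonic day 11.5. The 3 control libraries came from Dicer F/F embryos, which carry the floxed Dicer alleles without Cre (the genotype label of these samples reads WT), and the 3 Rx-Dicer libraries from RxCre-Dicer F/F embryos. In the latter, Cre is driven by regulatory sequences of Rx, a gene of the early forebrain, so that Dicer is deleted in cells of that territory, while the dissected tissue can also hold vessels, blood and mesenchyme. The Cre line was kept on a CD1 background and the floxed line on C57BL/6. Whether a library holds 1 embryo or several was not stated, so p-values measure the spread between these samples.

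Glycolysis splits glucose into pyruvate in the cytoplasm, and lactate dehydrogenase then reduces pyruvate to lactate, which leaves the cell through monocarboxylate transporters. Early neuroepithelium, like other rapidly dividing tissue, is known for a high rate of this pathway. Many glycolytic genes are targets of the hypoxia-inducible factor HIF, and several enzymes exist as isoenzymes that differ between tissues. Dicer cuts microRNA precursors into mature microRNAs, which pair through their seed (bases 2 to 8) with messenger RNAs and lower their levels. The comparison of Rx-Dicer with control libraries asks whether the messenger RNAs of this pathway differ once Dicer is removed from the rostral telencephalon.

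No difference between Rx-Dicer and control libraries was detected in any of the 10 genes. The fitted log2 fold changes (Rx-Dicer against control) ran from -0.21 for Aldoa to 0.13 for Pfkp, with a median of -0.09 beside -0.00087 over all genes tested. In the DESeq2 fit over all genes, 0 of the 10 had an adjusted p under 0.05 with a level over 25% higher in 1 genotype than in the other, whereas 2.93% of all genes tested did (1.75% higher and 1.18% lower in Rx-Dicer, and 0.0446% under the same rule in edgeR). At an unadjusted p of 0.05, again 0 of the 10 passed in DESeq2 and 0 in edgeR's quasi-likelihood test, against 13.1% and 12.9% of all genes. The 3 Rx-Dicer values overlapped the 3 control values in 10 of the 10 genes, while the groups did not overlap in 19.3% of all genes. In this fit, the 95% intervals of all 10 fold changes lay within 1.5-fold in either direction. Those of 3 (Hk1, Pfkl and Eno1) stayed under a 25% excess of either genotype. For the other 7 genes an excess of 25% lies inside the interval. These bounds did not all hold with 1 library left out. For example, Aldoa had -0.35 ± 0.13 (SE) without control 1, and Pfkl 0.11 ± 0.17 without control 3. Wrong calls by DESeq2 exceeded the nominal share in simulated data of this size, so its intervals may be too narrow.

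**Figure D1:**
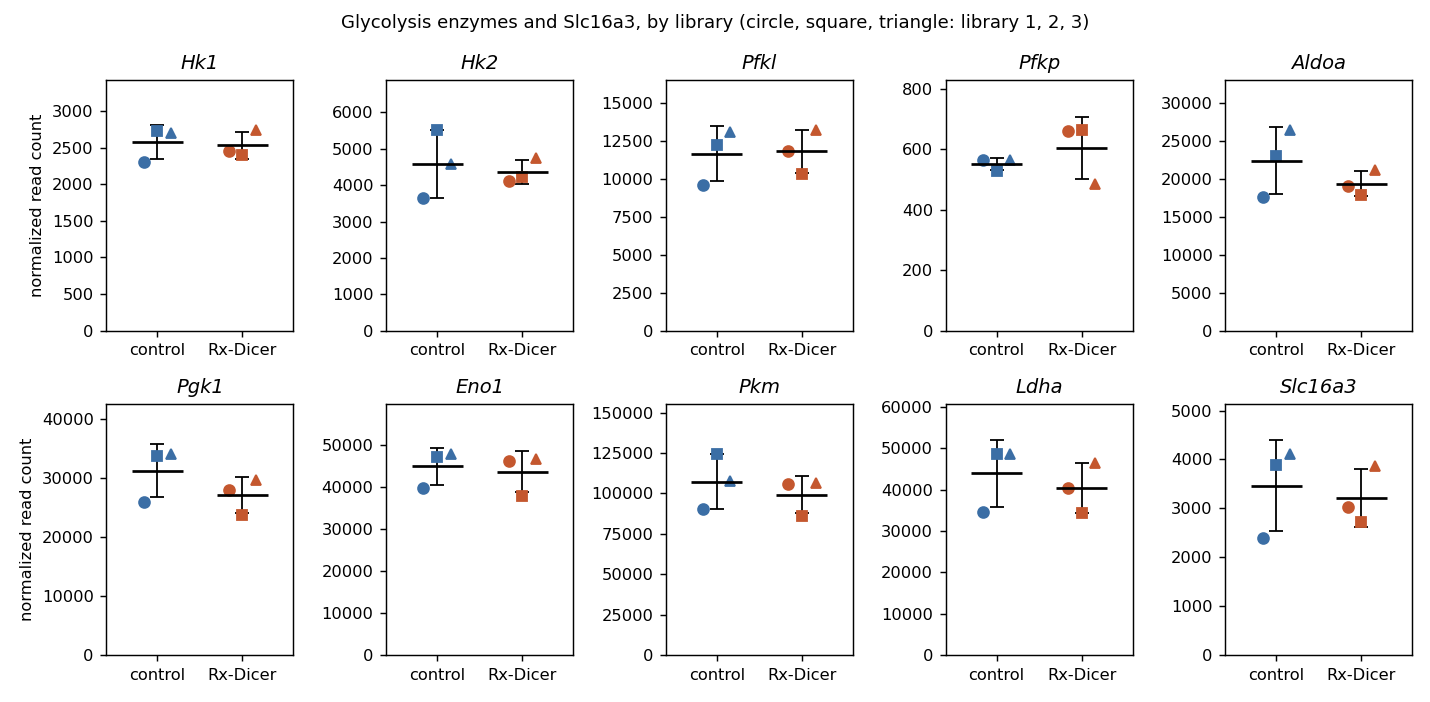
Normalized read count (y axis, from 0) of each of the 10 genes in the 3 control (blue) and 3 Rx-Dicer (orange) libraries, with the mean (line) and SD (bars). The groups overlap in all 10 panels, and library 1 of the control group and library 2 of the Rx-Dicer group are the lowest of their group in most of them.

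Libraries held 34471501 to 48373468 counts in genes, and the value of each gene is given as a count normalized by DESeq2 size factors. Dicer1 itself had 6355, 7070 and 6270 normalized counts in control libraries 1 to 3 and 4777, 7002 and 4644 in Rx-Dicer libraries 1 to 3, so that the library labelled Rx-Dicer 2 was at the control level. A gene total includes exons outside the floxed part and unrecombined cells of the dissection, and it checks the deletion only in part. Without the library labelled Rx-Dicer 2, the 10 genes had a median log2 fold change of -0.0077. It was -0.22 without control 1, 0.00051 without control 2, -0.02 without control 3, -0.08 without Rx-Dicer 1 and -0.15 without Rx-Dicer 3, and 0 of the 10 were called in each case. Pax6, Sox2 and Nes, markers of neural progenitors, were detected in every library. Of 8 progenitor markers, 5 had negative and 3 positive fold changes, with a median log2 fold change of -0.17. Among them, Pax6 (log2 fold change -0.43 ± 0.12, adjusted p = 0.0127) and Fabp7 (-0.76 ± 0.22, adjusted p = 0.0307) were called lower in Rx-Dicer by DESeq2, neither of them by edgeR. DESeq2 called 1.18% of all genes tested lower.

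The first step of the pathway, phosphorylation of glucose, is carried by the hexokinases. Hk1 (ENSMUSG00000037012, GRCm38 chromosome 10, 62268855 to 62379908), the form found in most tissues, had 2304, 2728 and 2697 normalized counts in the control libraries and 2452, 2397 and 2742 in the Rx-Dicer libraries. Its log2 fold change was -0.03 ± 0.13 (SE, n = 3 per group; 95% interval -0.28 to 0.22; DESeq2 adjusted p = 0.981). It was the least variable of the 10, with a 1.19-fold span over the 6 libraries. Hk2 (ENSMUSG00000000628, chromosome 6, 82725025 to 82774454), a HIF target and the hexokinase of many growing cells, had 3648, 5520 and 4595 in controls. In Rx-Dicer libraries it had 4123, 4218 and 4747, all inside the control range. The log2 fold change of Hk2 was -0.07 ± 0.16 (interval -0.39 to 0.24; adjusted p = 0.945 by DESeq2).

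Phosphofructokinase commits sugar to the pathway, and its liver-type and platelet-type subunits differed from each other far more than either differed between genotypes. Pfkl (ENSMUSG00000020277, chromosome 10, 77986947 to 78010083) had 9619, 12257 and 13111 normalized counts in controls against 11860, 10343 and 13229 in Rx-Dicer libraries, a log2 fold change of 0.02 ± 0.15 (adjusted p = 0.989, DESeq2). Pfkp (ENSMUSG00000021196, chromosome 13, 6579768 to 6648777) had only 563, 530 and 564 in controls against 662, 664 and 485 in Rx-Dicer libraries. Rx-Dicer 1 and 2 lay above all controls and Rx-Dicer 3 below them, and the log2 fold change of 0.13 ± 0.17 (interval -0.21 to 0.46) had a DESeq2 adjusted p of 0.875.

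Aldolase and phosphoglycerate kinase had the most negative fitted values of the 10, and neither passed the test. Aldoa (ENSMUSG00000030695, chromosome 7, 126795234 to 126800751), which splits fructose bisphosphate, had 17693, 23053 and 26507 normalized counts in controls. Its Rx-Dicer values of 19075, 17969 and 21216 were above control 1 and below controls 2 and 3. The log2 fold change of Aldoa was -0.21 ± 0.16 (interval -0.52 to 0.10; DESeq2 adjusted p = 0.678). The second record named Aldoa (ENSMUSG00000114515, chromosome 7, 126800790 to 126809108), directly upstream on the same strand, held 129 to 197 counts per library and had the same fitted value, -0.21 ± 0.25. Pgk1 (ENSMUSG00000062070, chromosome X, 106187100 to 106203699), which makes the first ATP of the pathway, had 26030, 33752 and 34060 in controls against 27959, 23678 and 29687 in Rx-Dicer libraries. It too had a log2 fold change of -0.21 ± 0.15 (interval -0.49 to 0.08; DESeq2 adjusted p = 0.631). Pgk1 shares 51.7% of its 100-base stretches with transcripts of other annotated genes, such as Pgk1-rs7, so reads from those stretches may have been left out of its count as not unique.

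The last enzymes of the pathway, Eno1 and Pkm, were among the most abundant messenger RNAs of the set, and neither was called. Eno1 (ENSMUSG00000063524, chromosome 4, 150236721 to 150248879), the enolase of dividing cells, had 39718, 47101 and 47747 normalized counts in controls against 46115, 37901 and 46668 in Rx-Dicer libraries. Its log2 fold change was -0.04 ± 0.13 (interval -0.30 to 0.22; DESeq2 adjusted p = 0.966). Pkm (ENSMUSG00000032294, chromosome 9, 59656368 to 59679375), pyruvate kinase, had 90067, 124223 and 107620 in controls against 105584, 85985 and 106311 in Rx-Dicer libraries. The log2 fold change of Pkm was -0.11 ± 0.15 (interval -0.41 to 0.18, adjusted p = 0.877 by DESeq2). Gene counts do not separate its M1 and M2 splice forms. Eno1 shares 20.4% and Pkm 12.3% of their 100-base stretches with other annotated genes, which include Eno1b for the former.

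The messenger RNAs for lactate formation and export, Ldha and Slc16a3, were not called either. Ldha (ENSMUSG00000063229, chromosome 7, 46841475 to 46855627), the lactate dehydrogenase subunit that favors lactate, had 34656, 48532 and 48513 normalized counts in controls against 40384, 34344 and 46410 in Rx-Dicer libraries. This gave a log2 fold change of -0.12 ± 0.17 (interval -0.44 to 0.20; DESeq2 adjusted p = 0.882). Slc16a3 (ENSMUSG00000025161, chromosome 11, 120948480 to 120960868) encodes MCT4, the transporter by which glycolytic cells release lactate. It had 2390, 3892 and 4105 counts in controls against 3021, 2724 and 3863 in Rx-Dicer libraries. With a 1.72-fold span over the 6 libraries it was the most variable of the 10, and its interval was the widest (-0.51 to 0.29, around -0.11 ± 0.20; DESeq2 adjusted p = 0.925).

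**Figure D2:**
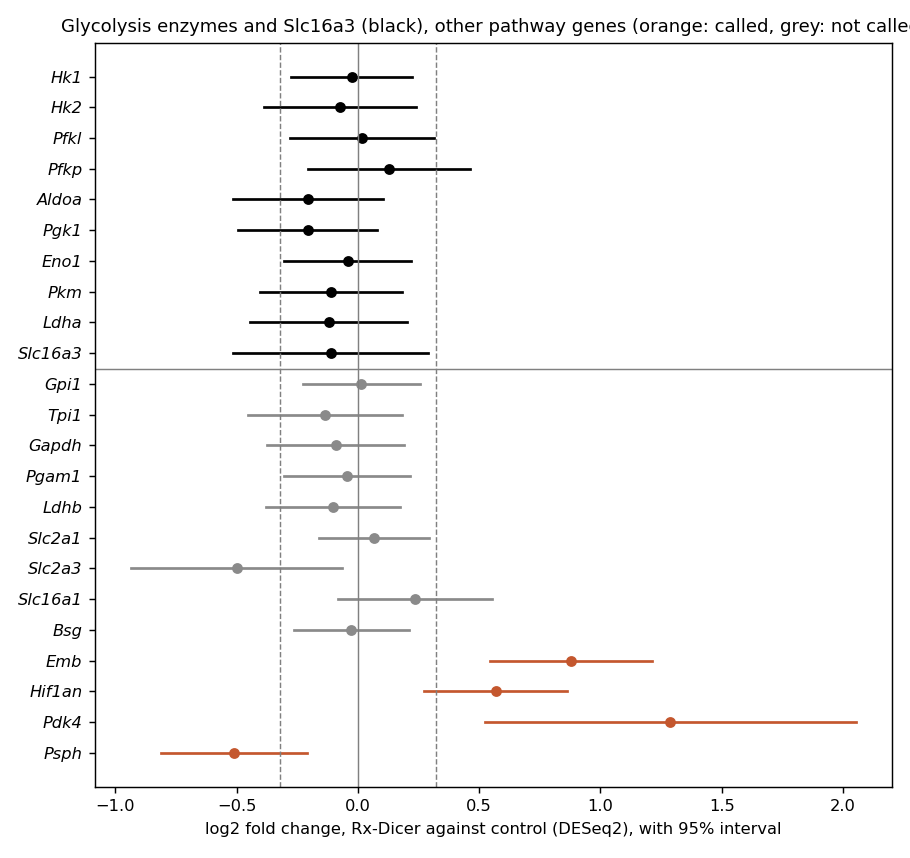
Log2 fold change, Rx-Dicer against control, with its 95% interval (x axis) for the 10 genes (black) and 13 other genes of the pathway, where orange marks those called by DESeq2 and dashed lines mark a 25% excess in either genotype. All 10 black intervals cross 0, and the 4 orange genes (Emb, Hif1an, Pdk4 and Psph) do not.

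The libraries differed from each other in these genes more than the genotypes did, and 9 of the 10, all but Pfkp, moved together. Control 1 was the lowest control in 9 of the 10 genes and Rx-Dicer 2 the lowest Rx-Dicer library in 8 of the 10. Both held at once for 8 genes, all but Hk2 and Pfkp, against 15.3% of all genes tested. The pattern was taken from the values of these same genes, so this contrast is a description and not a test. On the log2 scale the 10 genes deviated from their own 6-library means by -0.22 on average in control 1, 0.16 in control 2 and 0.16 in control 3. In Rx-Dicer libraries 1, 2 and 3 the mean deviations were -0.01, -0.16 and 0.07. All 10 genes were under their mean in control 1, and 9 of the 10 in Rx-Dicer 2, where Pfkp was the exception. Across the 6 libraries, the profile of a gene had a Pearson correlation of 0.81 to 0.98 with the mean of the other 9 for 9 of the genes, and of -0.58 for Pfkp, a description over points that share libraries and depth.

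**Figure D3:**
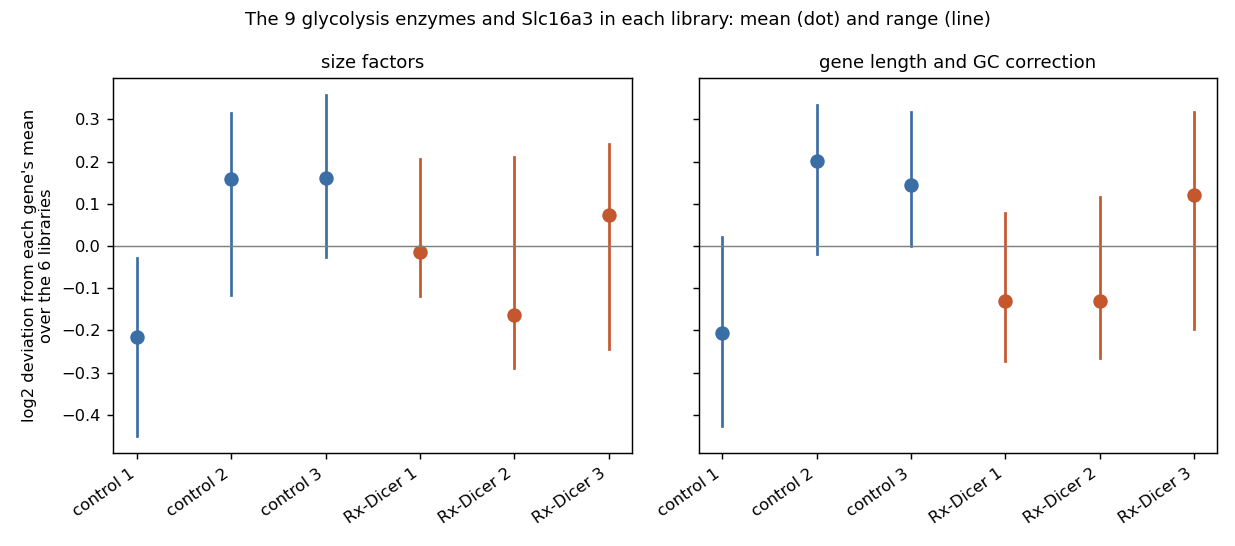
Log2 deviation of the 10 genes from their own means over the 6 libraries (y axis), as mean (dot) and range (line) in each control (blue) and Rx-Dicer (orange) library, under size factors alone (left) and with the gene length and GC correction (right). Control 1 averages -0.22 on the left and Rx-Dicer 1 shifts from -0.01 to -0.13 with the correction, while the 2 genotypes span overlapping values in both panels.

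With library differences tied to gene length and GC content removed, the mean deviations of the 10 genes were -0.21, 0.20 and 0.15 in controls 1 to 3 and -0.13, -0.13 and 0.12 in Rx-Dicer libraries 1 to 3. The 10 genes had exonic GC contents of 48.7% to 58.1%. Control 1 and Rx-Dicer 2 also had the fewest counts in genes (34471501 and 40006887). Rx-Dicer 2 had the highest share of reads assigned to no annotated exon (11.6%, against 7.18% to 9.0% in the others). The 10 erythroid markers took 2.34% and 2.32% of counts in control 2 and Rx-Dicer 3, and 0.881% to 1.13% in the other libraries. The part of depth, of blood content and of reads outside exons in the spread was not tested. Together the 10 genes took 0.538%, 0.696% and 0.691% of all counts in controls and 0.630%, 0.540% and 0.632% in Rx-Dicer libraries, which averages 0.642% ± 0.089 and 0.601% ± 0.052 (SD, n = 3).

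The genes whose profile over the 6 libraries was most like the average of the 10 were Gin1 (Pearson r = 0.987), Taf6l (0.983), Grhpr (0.979), Ccdc158 (0.977) and Endog (0.972), out of 12885 genes with a mean count of at least 100. Of these, Grhpr encodes an enzyme that reduces glyoxylate and hydroxypyruvate. The enzymes that complete the pathway ranked near the top of the same 12885 genes: Pgam1 was at rank 11 (r = 0.967), Gpi1 at 81, Tpi1 at 88 and Gapdh at 97. The likeness is over 6 libraries and all genes share the same libraries. Hif1a, the oxygen-regulated subunit of HIF, had r = -0.58 with the same profile, at rank 11759. Other genes of the pathway lay between, with r = 0.78 for Pfkm, 0.75 for Bsg, 0.69 for the HIF target Pdk1, 0.42 for the HIF target Bnip3, 0.32 for Ldhb and 0.28 for Slc2a1.

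The 10 genes spanned a wide range of levels, which can be compared between genes only per length of exon. Averaged over the 6 libraries, Pkm had 20656 normalized counts per kb, Pgk1 13010, Ldha 12731, Eno1 8219 and Aldoa 7186. Pfkl followed with 1758, Hk2 with 750, Slc16a3 with 627, Hk1 with 299 and Pfkp with 43.1. Thus the enzymes from aldolase onward stood well above the hexokinases and phosphofructokinases that open the pathway. The order held in all 6 libraries for 6 of the 9 neighboring pairs. Pgk1 and Ldha, Eno1 and Aldoa, and Hk2 and Slc16a3 changed places in 1 of the 6 libraries each, and their mean levels differed by 1.02-fold, 1.14-fold and 1.2-fold. Lengths are the union of all annotated exons (2244 bases for Pgk1 and 13401 for Pfkp), so a gene with long rarely used exons is understated.

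**Figure D4:**
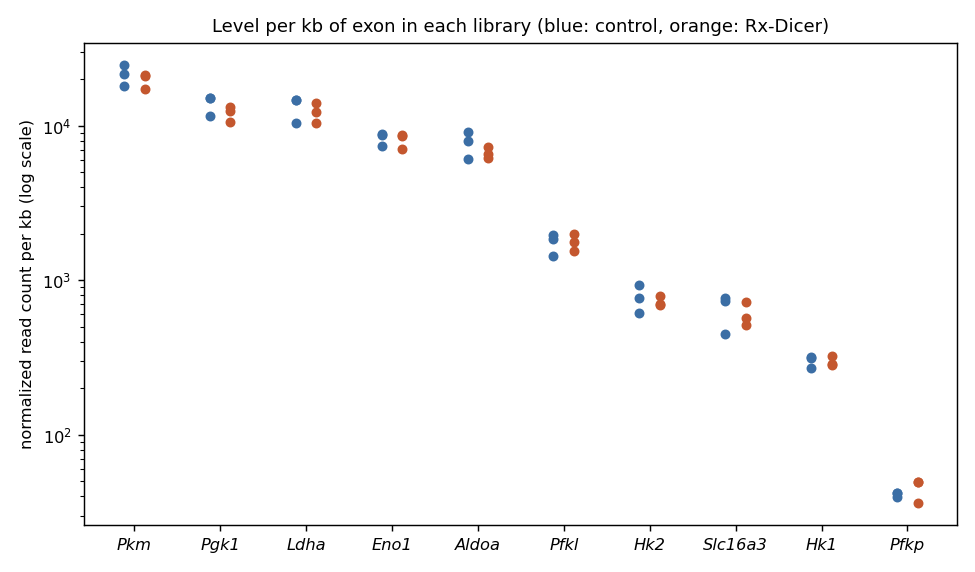
Normalized read count per kb of exon (y axis, log scale) of the 10 genes in each control (blue) and Rx-Dicer (orange) library, ordered by mean level. Pkm is highest at 20656 and Pfkp lowest at 43.1, and the colors overlap for every gene.

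Isoenzyme choice was compared within each library as the log2 ratio of counts per kb, which does not depend on scaling between libraries. The size of a ratio does depend on the annotated exon lengths of both genes, while its comparison between genotypes does not. The groups overlapped in all 6 ratios compared. An exact two-sided permutation test gave an adjusted p of 1.0 over the 6 ratios in each case, but with 3 against 3 libraries its smallest unadjusted p is 0.1, so it could not have passed. Hk2 stood above Hk1 by 1.33 ± 0.18 log2 units in controls and 1.3 ± 0.033 in Rx-Dicer libraries (SD, n = 3). Pfkp stood below Pfkl, at -5.39 ± 0.26 and -5.30 ± 0.42. Ldha exceeded Ldhb, the subunit that favors the reverse reaction, by 1.11 ± 0.32 in controls and 1.11 ± 0.14 in Rx-Dicer libraries, so the lactate-forming subunit was about 2.16-fold above the other in both. Slc16a3 was below Slc16a1, which encodes the more widespread transporter MCT1, by -0.48 ± 0.40 and -0.79 ± 0.09. That difference of -0.31 was the most negative of the 6 ratios and had an unadjusted exact permutation p of 0.4.

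Eno2 and Aldoc, enolase and aldolase forms of the mature brain, were scarce beside Eno1 and Aldoa. Eno1 exceeded Eno2, the neuronal enolase, by 7.25 ± 0.52 log2 units in controls and 7.25 ± 0.44 in Rx-Dicer libraries, or about 152-fold. Aldoa exceeded Aldoc, the brain aldolase, by 5.84 ± 0.91 and 6.21 ± 1.16. Aldoc was the least steady of these genes: it had 580, 548 and 256 normalized counts in controls against 730, 160 and 217 in Rx-Dicer libraries. Its log2 fold change of -0.32 ± 0.74 (DESeq2 adjusted p = 0.949) became -1.29 (adjusted p = 0.0180) without Rx-Dicer 1, so that 1 library decided it. In 5 of the 6 ratios, all but Pfkp over Pfkl, the lowest value of each genotype was that of the library numbered 1. The summed level of 8 neuron markers was likewise highest in library 1 of each genotype (91149 normalized counts against 69856 and 71763 in controls, and 78160 against 62815 and 58767 in Rx-Dicer libraries). The part of neuron content in the ratios was not tested, and in bulk tissue fewer cells of a type and less RNA per cell cannot be told apart.

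**Figure D5:**
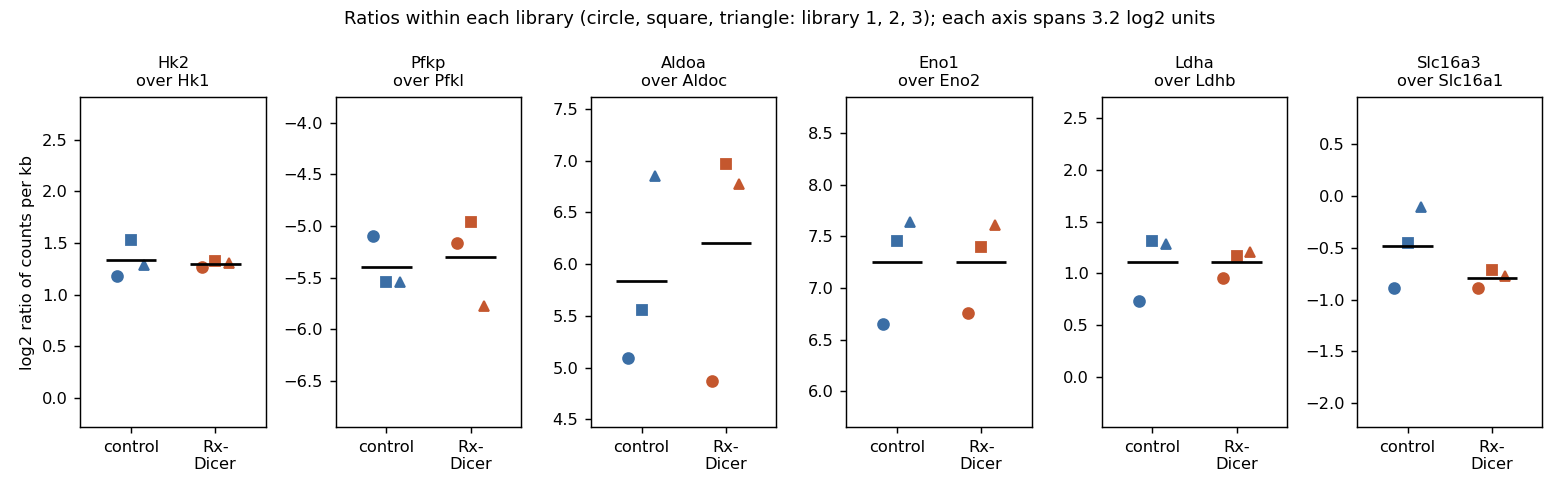
Log2 ratio of counts per kb of paired genes within each library (y axis, 3.2 log2 units in every panel), for control (blue) and Rx-Dicer (orange) libraries, with the group mean as a line. The groups overlap in all 6 panels, and library 1 (circle) is lowest in both genotypes in every panel but Pfkp over Pfkl.

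No gene for the steps of glycolysis outside the 10 was called either. Of 21 other glycolysis enzymes 16 were tested and 0 were called, with a median log2 fold change of -0.05. At an unadjusted p under 0.05, 3 passed in DESeq2 and 2 in edgeR, against 13.1% and 12.9% of all genes. Gpi1 (0.01 ± 0.12), Tpi1 (-0.14 ± 0.16), Gapdh (-0.09 ± 0.14) and Pgam1 (-0.04 ± 0.13) carry the remaining steps of the pathway, and their DESeq2 adjusted p-values ran from 0.853 to 0.991. The smallest adjusted p of the list belonged to rare forms. Hk3, the hexokinase of blood cells, had 30.5, 24.4 and 31.9 normalized counts in controls against 105, 39.7 and 72.2 in Rx-Dicer libraries, a log2 fold change of 1.33 ± 0.44 (DESeq2 adjusted p = 0.0723, and 0.00485 without Rx-Dicer 2). Its order over the Rx-Dicer libraries was that of 9 microglia markers, whose summed level was 1353 to 1626 in controls against 5169, 1504 and 3235 in Rx-Dicer libraries 1 to 3, with all 9 detected in every library. All 9 had positive fold changes and 8 an unadjusted p under 0.05 in DESeq2, which called 2 of them (Csf1r and Cx3cr1), whereas edgeR called 0. Over all genes, 13.1% had such a p in DESeq2, which called 2.93%. The part of microglia in the value of Hk3 was not tested. Pgam2, the muscle form, had a log2 fold change of -1.42 ± 0.54 on 10.3 to 68.6 counts per library (adjusted p = 0.145), and Eno4 of 0.86 ± 0.39 (adjusted p = 0.280), both by DESeq2.

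Among the messenger RNAs of glucose uptake and lactate transport, DESeq2 called 1 and edgeR 0. Slc2a1, which encodes the main glucose transporter of the brain, had 8218 to 8856 normalized counts in controls and 8032 to 9493 in Rx-Dicer libraries (log2 fold change 0.07 ± 0.12). Slc2a3, the neuronal glucose transporter, had 1963, 1092 and 2071 in controls against 1116, 1092 and 1416 in Rx-Dicer libraries. Its log2 fold change of -0.50 ± 0.22 did not pass (DESeq2 adjusted p = 0.260), though without control 2 it was -0.74 (adjusted p = 0.00239). Slc16a1 (0.23 ± 0.16), Slc2a4 (0.26 ± 0.16) and Bsg, the chaperone that carries MCT1 and MCT4 to the membrane (-0.03 ± 0.12), did not pass either. Emb, encoding embigin, the other chaperone of monocarboxylate transporters, had 1734, 1207 and 1142 in controls against 2639, 2373 and 2498 in Rx-Dicer libraries. It was higher in all 3 Rx-Dicer libraries, by 0.88 ± 0.17 on the log2 scale (DESeq2 adjusted p = 7.1e-05, 0.115 in edgeR). Emb stood as the 1 call among 11 tested genes of this list, against 2.93% of all genes tested. The median of the list was 0.11, and 2 had an unadjusted p under 0.05 in DESeq2 (13.1% over all genes).

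Among 21 genes that regulate glycolysis or admit pyruvate to mitochondria, 1 was called, against 2.93% of all genes tested. The median log2 fold change was -0.04, and 3 had an unadjusted p under 0.05 in DESeq2 (13.1% over all genes). Pdk4, a kinase that switches off pyruvate dehydrogenase, rose from 26.9, 22.4 and 31.9 normalized counts in controls to 80.6, 55.0 and 62.7 in Rx-Dicer libraries (1.29 ± 0.39; DESeq2 adjusted p = 0.0401, edgeR 0.165). These are low counts, and the call held under 6 of the 17 alternatives that gave Pdk4 an adjusted p. Its abundant relative Pdk1, a HIF target, had -0.04 ± 0.18. Ptbp1, the splicing factor that favors the M2 form of Pkm, had a log2 fold change of 0.27 ± 0.11 with groups that did not overlap (17897, 20183 and 19720 against 23946, 21306 and 24353), and of the alternatives run it passed the DESeq2 test only in that without Rx-Dicer 2 (adjusted p = 0.0335, against 0.228 with it). Mpc2, a subunit of the mitochondrial pyruvate carrier, had -0.31 ± 0.14 (adjusted p = 0.237).

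Of 25 genes of the HIF pathway and its other targets, 1 was called, against 2.93% of all genes tested. The median log2 fold change was 0.09, with 17 positive and 8 negative values. At an unadjusted p under 0.05, 6 passed in DESeq2 and 5 in edgeR, against 13.1% and 12.9% of all genes. Hif1an encodes the asparagine hydroxylase that holds back HIF activity. It had 3950, 5416 and 4797 normalized counts in controls against 7691, 6179 and 7122 in Rx-Dicer libraries, a rise of 0.57 ± 0.15 on the log2 scale (DESeq2 adjusted p = 0.0116, edgeR 0.166). The call held under 12 of 18 alternatives. Hif1a itself (0.08 ± 0.11) and the targets Vegfa (0.19 ± 0.17), Bnip3 (0.32 ± 0.19) and Egln3 (0.05 ± 0.19) were not called. Higd1a (-0.31 ± 0.13) and the oxygen sensor Egln2 (-0.29 ± 0.14), which had the next smallest p-values, had DESeq2 adjusted p-values of 0.247 and 0.306. In the list of pentose phosphate, gluconeogenesis and serine genes, 13 were tested and 1 was called, with a median of -0.16. At an unadjusted p under 0.05 in DESeq2, 3 of them passed. Psph, the last enzyme of serine synthesis, fell from 975, 888 and 893 to 694, 542 and 696 (-0.51 ± 0.15; DESeq2 adjusted p = 0.0369, edgeR 0.207, held under 9 of 18 alternatives). Pgd and Pgls, both of the pentose phosphate pathway, had -0.23 ± 0.11 and -0.32 ± 0.15 (adjusted p = 0.323 and 0.316).

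Seed matches of microRNAs are a property of the sequence that the choice of the 10 genes did not use. They were searched in the longest annotated 3′ UTR of each gene for let-7, which the title of the series names, and for miR-9, an abundant microRNA of the embryonic brain. The mature sequences are shown 5′ to 3′ with the seed in capitals (RefSeq, GRCm38.p6). Let-7a and miR-98 share the 1 seed used here for let-7, and miR-9 has another.
mmu-let-7a-5p: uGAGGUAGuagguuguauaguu
mmu-miR-98-5p: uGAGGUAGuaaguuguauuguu
mmu-miR-9-5p: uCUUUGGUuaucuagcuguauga
The complement of the let-7 seed, CTACCTC on the transcript strand, was found in 0 of the 10 genes, whereas 9.02% of 21016 genes with a 3′ UTR hold it. The complement of the miR-9 seed, ACCAAAG, was found in 2 of the 10 (2 matches in Hk2 and 1 in Pfkp), against 12.2% of genes. These UTRs ran from 185 bases for Aldoa to 2736 for Slc16a3, and no match says only that these letters are not in the annotated UTR.

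Matches also lay in other genes of the pathway lists. Of 106 genes with a 3′ UTR in these lists, the 10 included, 12 held the let-7 word, none of them among the 10. The miR-9 word was held by 17, Hk2 and Pfkp among them. Over all genes with a 3′ UTR the shares were 9.02% and 12.2%. The matches in called genes, in Hk2 and Pfkp, and in Slc2a3, which was not called, are shown with flanking bases and the match in capitals, on the strand of the transcript. An added capital letter at the end marks a match that also has adenine opposite the first base of the microRNA.
Hif1an, let-7, chr19:44573368-44573375: tgttggttctCTACCTCAcctcaagcct
Hif1an, let-7, chr19:44574939-44574945: ggtaagttccCTACCTCtgttgtcttt
Hif1an, let-7, chr19:44576177-44576184: ttgaaaatatCTACCTCAgggttgctgg
Slc2a3, let-7, chr6:122728375-122728382: ttggaaggctCTACCTCActacagctag
Emb, miR-9, chr13:117273378-117273385: tctgtttattACCAAAGAatttattaaa
Pdk4, miR-9, chr6:5483624-5483630: acttgtgtttACCAAAGgtctaaggca
Hk2, miR-9, chr6:82726788-82726794: aggaacccaaACCAAAGctagactcga
Hk2, miR-9, chr6:82726231-82726237: ggcaaagaaaACCAAAGgatttgtttc
Pfkp, miR-9, chr13:6581106-6581112: tttccatgccACCAAAGgtttccttcc
Of the 3 called genes that were higher in Rx-Dicer, Hif1an held 3 let-7 matches in a 3′ UTR of 5116 bases, 2 of them with the added adenine. Emb and Pdk4 each held 1 miR-9 match, and Psph, called lower, held neither word. Other genes with a match were not called, among them Bsg (let-7, log2 fold change -0.03 ± 0.12), Pdk1 (miR-9, -0.04 ± 0.18), Ptbp1 (miR-9, 0.27 ± 0.11) and Aldoc (both, -0.32 ± 0.74). Slc2a3, which holds a let-7 match with the added adenine, had a negative fitted value, and Hk2, with 2 miR-9 matches, had -0.07 ± 0.16. A match is a description and not a shown site.

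As many glycolytic genes are HIF targets, the promoters of the 10 were searched for the core of the HIF binding element. Any part of HIF in the shared movement over the libraries was not tested. RefSeq (GRCm38.p6) gave 17 promoter windows for the 10 genes, each from 250 bases before to 50 after a start site. Searched on both strands, the word ACGTG was present in 8 of the 17 windows (47.1%), against 19.6% of 32851 windows of the same length. Either this word or the second form of the core, GCGTG, was present in 14 of the 17 (82.4%, against 43.8%). The windows of the 10 genes had a median GC content of 65.0% against 52.7%, whose part in these shares was not tested. Windows of 1 gene can overlap, and 2 overlapping windows of Aldoa hold the same match to the first word. Of 16 matches for the first word, which also lie in Hk1 and Aldoa, 6 are shown as examples with flanking bases on the strand of the gene, and capitals mark the word, written as CACGT where it lies on the opposite strand.
Ldha, chr7:46845660-46845664: gtgtcgcagcacACGTGgagccactcttg
Ldha, chr7:46845757-46845761: ggcccagcctacACGTGggttcccgcacg
Pgk1, chrX:106186950-106186954: gcgtcgtgcaggACGTGacaaatggaagt
Slc16a3, chr11:120949040-120949044: caggcagcggtgACGTGcgcgggggacgt
Hk2, chr6:82774502-82774506: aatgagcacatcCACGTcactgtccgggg
Pkm, chr9:59657152-59657156: ctccgatccggtCACGTccgcgccgcagc
In the 2 Ldha sites shown the word is part of the palindrome CACGTG, which reads the same on both strands, so each of these places was counted once per strand. Eno1, Pfkl and Pfkp held only the GCGTG form.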

How the data were processed

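RNA of 6 samples, 3 per genotype, was measured by directional, paired-end RNA-seq with 100 bp reads. Raw counts per Ensembl gene were deposited: the authors trimmed reads with Trim Galore 0.6.5, aligned them to GRCm38.p6 with HISAT2 (version not given in the sources used here) and counted them with HTSeq 0.12.4 (union mode, reverse strand). Any reads placed in several genes or positions were not counted, which lowers genes with near copies. Each sample had 2 files. These differed by a chi-square per degree of freedom of 1.13 to 1.52, against 22.5 to 32.6 between samples of a group, and were summed as 1 library.

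Genotypes were compared with DESeq2 1.42.0 in R 4.3.3 (Wald test, genotype only, Benjamini-Hochberg adjustment over all genes), calling an adjusted p under 0.05 with a level over 25% higher in 1 genotype, the thresholds of the study. edgeR 4.0.16 served as an alternative. Both tools were tested on simulated data of this size, where wrong calls exceeded the nominal share clearly in DESeq2 and slightly in edgeR. Logs of ratios and profiles used a pseudocount of 0.5. A count of 0 allows up to 3 counts, or 0.062 to 0.087 CPM, for counting error only. Positions, exon lengths and UTRs came from GENCODE M21 (GRCm38), which matched 55144 of 55471 gene IDs. The genes, lists and tests were chosen with earlier results of these data known. Genes named were the 10, their isoenzyme partners, Gapdh, Tpi1, Gpi1, Pgam1, Slc2a1, Slc2a3 and Bsg, the calls or the 3 smallest adjusted p of each list, and the 5 most alike profiles. Pdk1, Hif1a, Vegfa, Bnip3, Egln3, Csf1r, Cx3cr1, Pax6, Fabp7 and Pfkm were named after their values were seen. Alternatives changed the tool, scaling, filters, threshold, files, replicate block, gene length and GC correction, and samples, 1 at a time, except that the block was also combined with the correction.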

Additional observations from a re-analysis of the deposited data

How the results depend on the processing

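None of the 10 genes was called under any of 18 alternatives, where their log2 fold changes ran from -0.35 to 0.26 and the smallest adjusted p was 0.125 (Aldoa). Signs near 0 did change. With the replicate block and the gene length and GC correction, Pfkl was -0.00061, Pfkp -0.00094, Gpi1 -0.018, Pgam1 0.021 and Bsg 0.061, and with the correction alone Gpi1 was -0.016, Pgam1 0.017 and Bsg 0.063, while the median of all genes was -0.048. Eno2 was 0.0036 with total-count scaling, and with the second file alone Eno2 was 0.054, Ccdc158 0.0068, and the difference in the ratio of Eno1 over Eno2 -0.084 and of Ldha over Ldhb -0.0095. With 1 sample left out, log2 fold changes ran from -0.21 to 0.082 for Hk2, -0.10 to 0.11 for Pfkl, -0.32 to 0.028 for Slc16a3, -0.22 to 0.0066 for Pkm, -0.10 to 0.017 for Hk1 and -0.12 to 0.053 for Eno1. They ran from -1.29 to 0.042 for Aldoc, -0.37 to 0.22 for Eno2, -0.19 to 0.030 for Ldhb, -0.21 to 0.0039 for Gapdh, -0.25 to 0.0050 for Tpi1, -0.058 to 0.085 for Gpi1, -0.13 to 0.037 for Pgam1, -0.094 to 0.059 for Bsg, -0.14 to 0.032 for Gin1, -0.19 to 0.048 for Ccdc158 and -0.24 to 0.026 for Endog. The differences in ratios ran from -0.11 to 0.070 for Hk2 over Hk1, -0.078 to 0.33 for Pfkp over Pfkl, -0.012 to 1.04 for Aldoa over Aldoc, -0.29 to 0.25 for Eno1 over Eno2 and -0.19 to 0.10 for Ldha over Ldhb. Their cause was not tested.

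Against 502 calls over all genes (300 higher, 202 lower), edgeR gave 8, all higher and 0 lower, and DESeq2 gave 322 without independent filtering (108 lower), 308 lower at an adjusted p under 0.1, and 285 to 637 with 1 sample left out (172 to 429 higher, 84 to 371 lower). Against 4 calls over the pathway lists, edgeR gave 0, DESeq2 without independent filtering 2, each file alone 2, and leaving out 1 sample 1 to 6. The deviations of same-numbered samples from their group means correlated by 0.289 for number 1, -0.011 for number 2 and -0.265 for number 3, so the numbers were not taken to pair the samples. The fit with the replicate block gave 314 calls over all genes (87 lower), of them 1 in the pathway lists, and 300.0 once that correction for length and GC was added to it (184 higher, 116 lower), again 1 in the lists. Depth limits rare genes such as Pdk4 (22.4 to 80.6 normalized counts per library) more than the 10 genes (485 to 124223).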
